A study of Mus musculus with 15 samples.

Results

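Small nucleolar RNAs (snoRNAs), the closely related small Cajal body RNAs (scaRNAs) and the long noncoding host genes named Snhg or Gas5 were followed in 15 RNA-seq libraries of dendritic cells grown from mouse bone marrow (BMDCs). Members were all gene symbols of these families with at least 10 reads in at least 3 of the 15 libraries. Of 168 such symbols 124 qualified, out of 50554 genes in the count tables. They were 69 of 101 C/D box snoRNAs, 31 of 39 H/ACA box snoRNAs, 6 of 9 scaRNAs and 18 of 19 Snhg or Gas5 symbols. One of the 18, Snhg7os, is named as an antisense partner of Snhg7 and is not itself known as a host. The faintest members were Snord67, with 10 reads in 3 libraries and at most 14 in any, and Snhg9 and Snord13, each in 4 libraries. Just outside lay Scarna3a, Scarna8 and Snord23, each with 10 reads in 2 libraries.

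BMDCs are antigen-presenting cells grown from marrow, here over 9 days with GM-CSF. All mice carried a tamoxifen-inducible Cre (CreERT2) and a floxed Mysm1 allele, were given tamoxifen, and yielded marrow more than 12 weeks later. The other allele was wild type in Δ/+ mice and encoded catalytically inactive MYSM1, a histone H2A deubiquitinase, in Δ/DN mice. Cells were then kept for 18 h without stimulus (US) or with 10 ng/mL lipopolysaccharide (LPS), a Gram-negative cell wall component sensed through TLR4. There were 3 Δ/+ LPS libraries and 4 of each other group. Library names tie the US and LPS library of a culture together and carry a prefix 2 or 3, called library set here. Set 3 held Δ/+ US replicate 4 and the US and LPS libraries of Δ/DN cultures 3 and 4. All other libraries, every Δ/+ LPS library among them, were of set 2. Set and genotype are thus in part confounded, most of all with LPS. Whether each culture came from its own mouse is not stated, so p-values measure the spread between cultures at most.

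Which letter code of mice stands for which genotype differs between the sample fields and the series description. The sample fields were followed here, so that a rise between genotypes would be a fall, and the reverse, under the other reading. Mysm1 RNA cannot settle this, since each genotype keeps an undeleted allele. Without LPS it averaged 50.4 ± 3.25 CPM in the 4 Δ/+ libraries and 41.2 ± 9.23 CPM (SD) in the 4 Δ/DN libraries, a log2 difference of -0.28 ± 0.14 (adjusted p = 0.213). CPM is the read count scaled to a common library size after TMM, a correction for the make-up of each library. Libraries held 37256651 to 104041282 reads, of which the members took 310 to 393 unscaled CPM without and 141 to 205 unscaled CPM with LPS. The TMM factors differed too, at 1.04 to 1.33 without and 0.734 to 0.940 with LPS. After scaling the members summed to 270 to 319 CPM in Δ/+ US and 234 to 259 CPM in Δ/+ LPS libraries. In Δ/DN the scaled sums overlapped, at 246 to 330 CPM without and 150 to 260 CPM with LPS. Δ/DN cultures 3 and 4, the Δ/DN cultures of set 3, stood apart. Culture 3 had the highest share of 7SL RNA without LPS, at 10.4% of reads, and little of the Y-linked Ddx3y, at 1.94 CPM without and 3.69 CPM with LPS. Culture 4 was the one culture with abundant Xist, at 1144 CPM without LPS. Its 8 neutrophil markers summed to 931 CPM without and 1085 CPM with LPS, against 44.9 to 151 CPM in the other libraries. Markers of T and B cells summed to at most 1.70 CPM in any library. The 12 dendritic cell markers listed summed to 5478 to 8609 CPM without and 8459 to 13998 CPM with LPS. Cd74 was the highest of them, with group means of 3366 to 6586 CPM. Some were faint, such as Xcr1 with group means of 0.0314 to 0.652 CPM and Cd209a with 0.241 to 1.00 CPM. The 10 macrophage markers listed summed to 1383 to 1917 CPM without and 1300 to 1932 CPM with LPS.

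Most snoRNAs of mammals lie in introns and are cut from the spliced and debranched intron of a host gene. C/D snoRNAs bind Fbl, Nop56, Nop58 and Snu13 and guide 2′-O-methylation of ribosomal RNA, while H/ACA snoRNAs bind Dkc1, Gar1, Nhp2 and Nop10 and guide pseudouridylation. scaRNAs guide the same changes on spliceosomal RNAs, and U3, encoded by the Snord3 genes, serves in early cleavage of the ribosomal RNA precursor. Hosts fall into ribosomal protein and other translation genes, and genes such as Gas5 and the Snhg genes, whose spliced exons have little coding use and are in part degraded by nonsense-mediated decay.

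The sequences below show the snoRNAs on which the LPS results turn. They are the mouse transcripts of GENCODE M21 (GRCm38), printed 5′ to 3′ with T for U. Capitals mark a C box (TGATGA, in the first 20 bases) and a D box (CTGA, in the last 15) in C/D snoRNAs, and ACA in the last 8 bases of H/ACA snoRNAs.
Snord100: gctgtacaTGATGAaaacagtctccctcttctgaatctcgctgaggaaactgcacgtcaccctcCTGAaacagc
Snord83b: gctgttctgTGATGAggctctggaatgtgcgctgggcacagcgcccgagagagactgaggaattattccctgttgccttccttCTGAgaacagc
Snord69: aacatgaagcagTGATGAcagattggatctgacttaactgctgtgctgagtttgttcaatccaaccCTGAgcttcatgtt
Snord99: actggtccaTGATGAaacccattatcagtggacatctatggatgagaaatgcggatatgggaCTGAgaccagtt
Snord88a: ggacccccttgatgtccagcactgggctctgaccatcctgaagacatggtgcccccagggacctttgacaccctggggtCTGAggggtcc
Snord88c: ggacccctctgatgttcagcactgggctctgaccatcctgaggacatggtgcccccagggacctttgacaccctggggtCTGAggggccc
Snora65: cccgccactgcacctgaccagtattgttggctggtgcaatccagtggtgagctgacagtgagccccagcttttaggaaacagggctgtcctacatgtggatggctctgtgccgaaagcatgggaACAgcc
Snora61: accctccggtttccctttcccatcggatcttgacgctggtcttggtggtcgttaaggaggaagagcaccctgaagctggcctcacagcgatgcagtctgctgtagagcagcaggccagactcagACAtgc
Of 62 C/D members searched, 38 held the C box letters, 57 the D box letters and 36 both, and of 30 H/ACA members 28 held ACA. Snord100 lies in Rps12, Snord83b in Rpl3, Snora65 in Rpl12, Snord69 in Gnl3, and Snord99 and Snora61 in Snhg12. Snord88a and Snord88c, both in 2410002F23Rik, differ at 5 of 90 positions (94.4% identity). Snora73a and Snora73b, both in Snhg3, differ at 7 of 205. Reads from such near copies and from the U3 genes may have been split between them, and their single values are uncertain. The deposited lengths of several genes are shorter than these transcripts, such as 62 bases for Snora61, whose transcript has 130. Of 100 snoRNAs and scaRNAs placed in the annotation, 44 lay in an intron of the gene around them, 49, Snord100 among them, overlapped an exon of at least one transcript of that gene, and 7 had no gene around them. Reads of a snoRNA inside a host and of the host's unspliced or overlapping RNA cannot be told apart in these counts, and the sources used here do not say whether strand was used.

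Host genes were lower with LPS in both genotypes. In Δ/+, 11 of 18 fell at an adjusted p under 0.05, the threshold for every call here, and none rose. Of all 20865 genes tested, 47.7% were called in the same comparison, 25.3% as fallen and 22.4% as risen. In Δ/DN 10 of 18 fell and none rose, where 48.2% of all genes were called, 25.1% as fallen and 23.1% as risen. At an unadjusted p under 0.05, 11 of 18 hosts moved in Δ/+ and 11 in Δ/DN. DESeq2, a second count test, called 11 falls in each genotype and no rise. The median log2 difference of the hosts was -1.03 in Δ/+ and -1.17 in Δ/DN, beside -0.08 and -0.09 over all genes. In bulk RNA, a change in RNA per cell and a change in the share of cells that make it cannot be told apart. The 10 that fell in Δ/DN were Gas5, Snhg1, Snhg3, Snhg4, Snhg5, Snhg7, Snhg12, Snhg16, Snhg17 and Snhg20, and each of these also fell in Δ/+.

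Gas5, a growth arrest-associated host of many C/D snoRNAs, lay at 47.2, 44.1, 41.3 and 36.6 CPM in the Δ/+ US libraries and at 18.3, 21.0 and 17.9 CPM with LPS. In Δ/DN it lay at 42.8, 37.3, 29.1 and 35.3 CPM without and at 20.3, 21.7, 21.5 and 20.3 CPM with LPS. The US and LPS ranges did not overlap in either genotype. Such ranges were apart for 52.1% of all genes in Δ/+ and 40.9% in Δ/DN, and for 50.9% and 26.4% of snoRNAs and scaRNAs. The log2 difference of Gas5 was -1.19 ± 0.11 (SE, adjusted p = 5.36e-07) in Δ/+ and -0.78 ± 0.10 (adjusted p = 1.10e-05) in Δ/DN. Snord47 was the sole snoRNA inside Gas5 among the members. It had 8, 56, 34 and 39 reads in Δ/+ US libraries and 6, 7 and 13 with LPS, and fell by 1.77 ± 0.54 on the log2 scale (adjusted p = 0.0145). That call was lost without Δ/+ LPS replicate 1 (-1.55, adjusted p = 0.0626) or Δ/+ US replicate 2 (-1.36, adjusted p = 0.0678). In Δ/DN its difference was -0.66 ± 0.46 (adjusted p = 0.257).

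Snhg1, host of a run of snoRNAs first known as U22 host gene, stood at 16.2, 17.4, 16.8 and 19.1 CPM in Δ/+ US and at 5.67, 5.03 and 5.41 CPM in Δ/+ LPS libraries. Δ/DN libraries stood at 12.9, 13.7, 11.6 and 12.7 CPM without and 3.85, 6.26, 5.53 and 6.03 CPM with LPS. All LPS libraries lay below all US libraries. It fell by 1.68 ± 0.15 in Δ/+ (adjusted p = 5.48e-07) and by 1.24 ± 0.13 in Δ/DN (adjusted p = 3.12e-06). Its snoRNA Snord22 (U22) fell by 0.62 ± 0.24 (adjusted p = 0.046) and by 1.14 ± 0.22 (adjusted p = 0.000586) in the same comparisons.

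Snhg17 was at 11.7, 13.6, 12.5 and 14.1 CPM in Δ/+ US and 2.85, 3.95 and 2.95 CPM in Δ/+ LPS libraries. It fell by 1.93 ± 0.18 in Δ/+ and by 1.37 ± 0.16 in Δ/DN, where it ran from 6.95 to 9.62 CPM without and 2.17 to 3.82 CPM with LPS. Snhg4 had the largest fall among the called hosts in Δ/+, at 2.60 ± 0.33, and fell by 1.52 ± 0.28 in Δ/DN. Snhg16 fell by 1.79 ± 0.20 and 1.38 ± 0.18, and Snhg12 by 1.64 ± 0.21 and 1.16 ± 0.19. Snhg6 and Snhg8 were called by neither tool, with log2 differences of -0.05 ± 0.15 and -0.17 ± 0.15 in Δ/+ and of -0.20 ± 0.14 and -0.06 ± 0.14 in Δ/DN. edgeR called none of Snhg9, Snhg10, Snhg11, Snhg14 and Snhg7os. DESeq2 called Snhg11 in Δ/DN (-1.78, adjusted p = 0.0338), where edgeR gave -1.85 ± 0.76 (adjusted p = 0.0602).

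**Figure D1:**
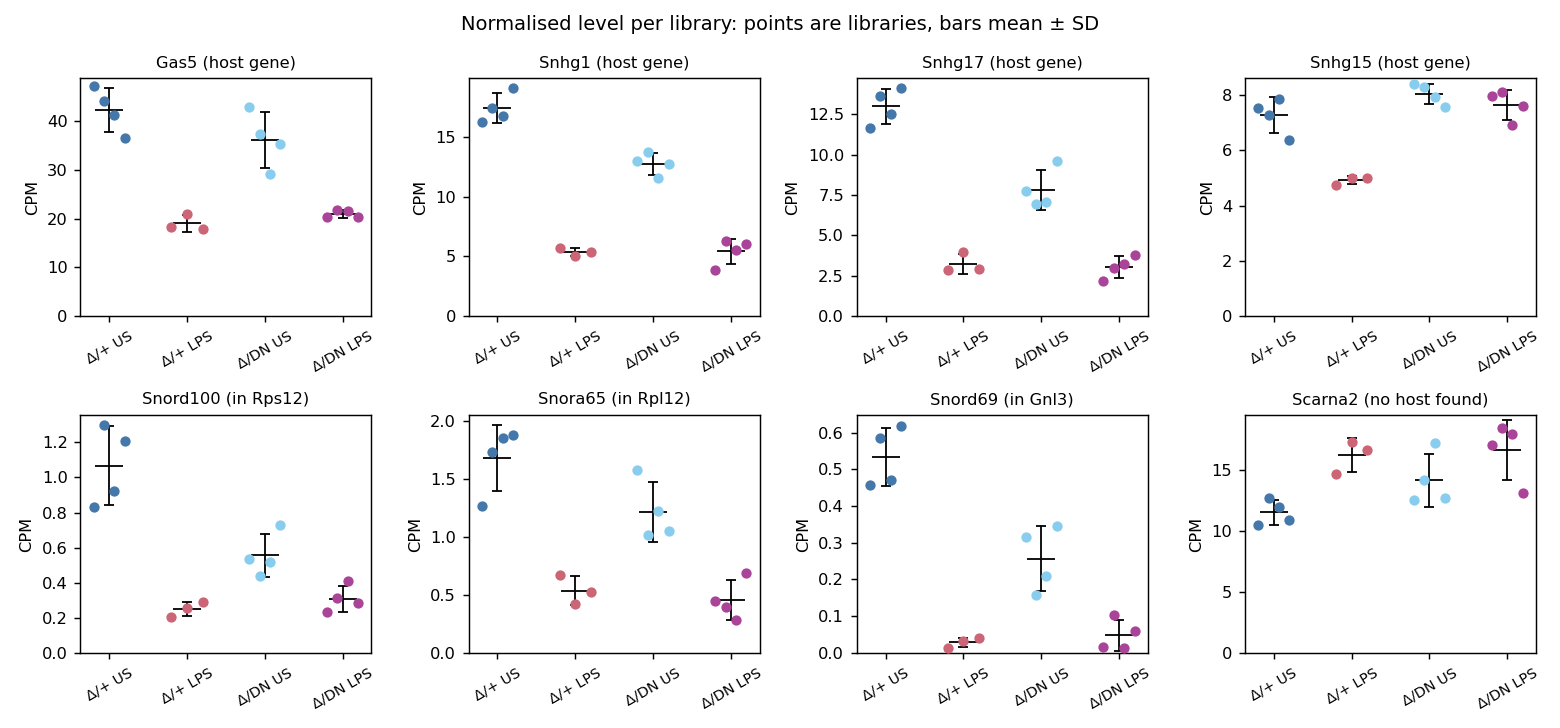
Level of 8 members in CPM (vertical axis, from 0) in each library of the 4 groups, with mean and SD as bars. Gas5, Snhg1 and Snhg17 and the 3 snoRNAs are lower with LPS, Snhg15 is low in Δ/+ LPS alone at 4.74 to 5.01 CPM, and Scarna2 is higher with LPS in Δ/+.

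Many snoRNAs, most of them at low levels, fell with LPS, while the summed level of snoRNAs and scaRNAs overlapped between US and LPS libraries. The sum was 174 ± 20.4 CPM (SD, n = 4) without and 188 ± 14.0 CPM (n = 3) with LPS in Δ/+, and 179 ± 46.0 and 147 ± 45.8 CPM (n = 4 each) in Δ/DN. In Δ/+, 41 of 106 snoRNAs and scaRNAs fell and 1 rose. The fallen were 27 of 69 C/D (median log2 difference of the class -0.89) and 14 of 31 H/ACA snoRNAs (-1.19), and the one that rose was Scarna2. In Δ/DN, 27 of 106 fell and none rose. They were 19 C/D (class median -0.66) and 8 H/ACA snoRNAs (-0.72). The share that fell in Δ/DN, 25.5%, is close to the 25.1% of all genes, while in Δ/+ it was 38.7% beside 25.3%. With LPS in Δ/DN, DESeq2 called 1 rise and 29 falls, and 40 of 106 had an unadjusted p under 0.05. Of the snoRNAs that fell, 23 were shared, which is 56.1% of the Δ/+ and 85.2% of the Δ/DN list. Most members had few reads. Of the 66 with a mean under 0.5 CPM, 31 fell in Δ/+ and 16 in Δ/DN, with a median standard error of 0.50 and 0.45 on the log2 scale. Of the 21 with 1 CPM or more, 3 fell and 1 rose in Δ/+ and 4 fell in Δ/DN, and their median log2 difference was 0.14 and -0.42.

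The 33 snoRNAs inside ribosomal protein genes (Rack1 included) were lower while the 25 genes that hold them were not. In Δ/+, 18 of 33 fell and none rose, with a median log2 difference of -1.27. Of their 25 host genes, 4 rose and none fell, with a median of 0.13. Each of the 33 snoRNAs had a lower value than its own host. In Δ/DN, 13 of 33 (39.4%) fell with a median of -0.84, beside 25.1% of all genes. There 3 of 25 hosts (12.0%) rose with a median of 0.09, below the 23.1% of all genes. In that genotype 32 of 33 snoRNAs lay below their host. No test was made of the difference between snoRNA and host. At an unadjusted p under 0.05, 6 of these hosts moved in Δ/+ and 4 in Δ/DN, and DESeq2 called 7 and 4 rises and no fall. It also called no rise among the 33 snoRNAs in either genotype. Summed over the 33, the snoRNAs made 26.0, 27.9, 23.2 and 25.7 CPM in Δ/+ US libraries and 12.0 ± 1.12 CPM (SD, n = 3) in Δ/+ LPS libraries. In Δ/DN the sums were 22.5, 19.1, 16.5 and 20.8 CPM without and 9.68, 11.7, 11.1 and 10.7 CPM with LPS.

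Snord100, a C/D snoRNA inside Rps12, had 38, 109, 100 and 104 reads in Δ/+ US and 15, 16 and 22 reads in Δ/+ LPS libraries, or 1.07 ± 0.22 (SD, n = 4) and 0.25 ± 0.04 CPM (n = 3). Its Δ/DN levels ran from 0.439 to 0.730 CPM without and from 0.234 to 0.407 CPM with LPS. The ranges were apart in both genotypes. It fell by 2.00 ± 0.30 (adjusted p = 6.26e-05) in Δ/+ and by 0.85 ± 0.26 (adjusted p = 0.0154) in Δ/DN. Rps12 itself averaged 104 ± 9.34 CPM over the 4 Δ/+ US and 104 ± 3.08 CPM (SD) over the 3 Δ/+ LPS libraries, a log2 difference of -0.01 ± 0.08 (adjusted p = 0.935).

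Snora65, an H/ACA snoRNA in Rpl12, lay at 1.27, 1.73, 1.85 and 1.87 CPM in Δ/+ US and 0.668, 0.419 and 0.524 CPM in Δ/+ LPS libraries. It fell by 1.63 ± 0.32 in Δ/+ (adjusted p = 0.000654) and by 1.41 ± 0.29 in Δ/DN (adjusted p = 0.000872). Rpl12 differed by 0.07 ± 0.11 and 0.01 ± 0.10. Both snoRNAs of Rpl3 fell in both genotypes, Snord83b by 1.55 ± 0.33 and 1.59 ± 0.30, and Snord43 by 2.14 ± 0.39 and 1.32 ± 0.33, beside Rpl3 differences of 0.18 ± 0.11 and 0.07 ± 0.10. The message of Rpl23a rose in both genotypes (0.28 ± 0.09 and 0.24 ± 0.08). It holds Snord4a, Snord42a and Snord42b. Of these, Snord4a fell by 1.46 ± 0.46 in Δ/+ and differed by 0.09 ± 0.41 in Δ/DN, where it passed no test. In Δ/DN libraries Snord42a had 11, 10, 19 and 12 reads without and 1, 9, 0 and 5 with LPS. Snord42b had 20, 29, 7 and 34 reads there without and 8, 11, 4 and 1 with LPS. In Δ/+ libraries Snord42a had 10, 14, 17 and 16 reads without and 4, 5 and 0 with LPS. Snord42b had 5, 27, 34 and 16 reads without and 5, 26 and 12 with LPS in Δ/+, with ranges that overlap.

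**Figure D2:**
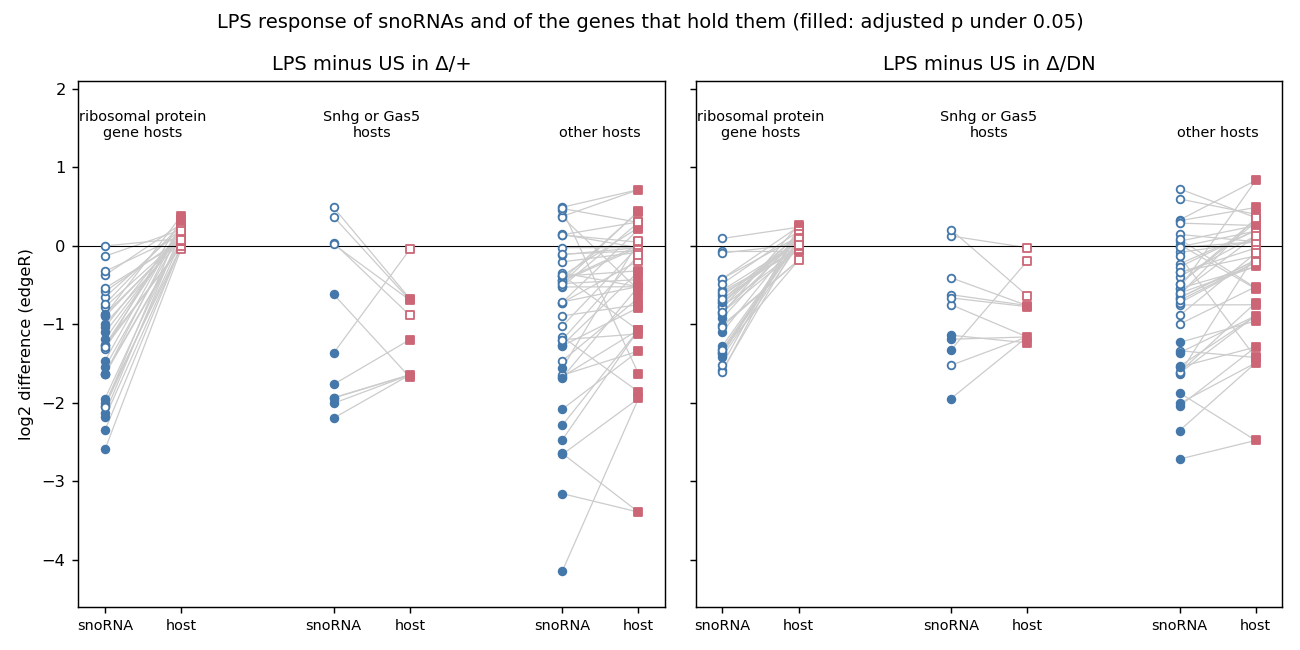
Log2 difference of LPS from US (vertical axis, edgeR) for each snoRNA (circles) and the gene that holds it (squares), joined by lines, by kind of host and genotype, filled where the adjusted p is under 0.05. The 25 ribosomal protein hosts lie near 0 with snoRNAs below them (medians 0.13 and -1.27 in Δ/+), while hosts of the other kinds reach down to -3.39 and their snoRNAs to -4.15.

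Among hosts of the other kinds, falls of snoRNA and host occurred side by side. Of the 11 snoRNAs in Snhg or Gas5 genes, 7 (63.6%) fell in Δ/+ and 4 (36.4%) in Δ/DN. Of their 7 hosts, 4 (57.1%) fell in each. Of all genes 25.3% fell in Δ/+ and 25.1% in Δ/DN, and some of the 11 share a host. Snhg12 holds the C/D snoRNA Snord99 and the H/ACA snoRNAs Snora61, Snora44 and Snora16a, and it fell with Snord99 and Snora61. Snora16a had 23, 52, 68 and 49 reads in Δ/+ US and 18, 8 and 9 reads in Δ/+ LPS libraries. In Δ/DN it had 20, 35, 8 and 36 reads without and 7, 21, 8 and 10 with LPS. Snora44 had 14, 39, 18 and 55 reads in Δ/+ US and 8, 4 and 5 reads in Δ/+ LPS libraries. In Δ/DN it had 21, 9, 19 and 26 reads without and 0, 4, 5 and 16 with LPS. Snord99 had 23, 40, 55 and 39 reads in Δ/+ US and 6, 9 and 8 reads in Δ/+ LPS libraries, and fell there (adjusted p = 0.000816). In Δ/DN it fell by 1.19 ± 0.40 (adjusted p = 0.0234). Snora61 fell by 2.01 ± 0.43 in Δ/+ and by 1.95 ± 0.41 in Δ/DN. In Snhg3 the host fell by 0.69 ± 0.18 and 0.76 ± 0.16, while its H/ACA snoRNA Snora73a (U17) differed by 0.37 ± 0.35 in Δ/+ and -0.41 ± 0.33 in Δ/DN. The second of these was called once each culture was taken as a block (-0.42, adjusted p = 0.00526). In Snhg6, itself not called, Snord87 fell by 1.37 ± 0.50 and 1.33 ± 0.44. Scarna13 in Snhg10 and Snora78 in Snhg9 passed no test, and nor did their hosts.

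Among 49 snoRNAs in other genes, 12 (24.5%) fell in Δ/+ and 10 (20.4%) in Δ/DN, shares near or below the 25.3% and 25.1% of all genes. Of 11 that fell in Δ/+ and had a tested host, 10 had a host that fell too. Some of these share a host, and 17 of all 35 hosts of this kind (48.6%) fell in Δ/+. Gnl3, which encodes the nucleolar GTPase nucleostemin, went from 55.4 ± 9.27 CPM (SD, n = 4) to 13.7 ± 1.09 CPM (n = 3) with LPS in Δ/+, a fall of 1.94 ± 0.10 (adjusted p = 6.31e-09). Its C/D snoRNA Snord69 had 21, 49, 51 and 53 reads in Δ/+ US and 1, 2 and 3 reads in Δ/+ LPS libraries. The Δ/DN libraries had 26, 14, 16 and 36 reads without and 1, 7, 1 and 5 reads with LPS. No LPS library reached a US library of its genotype. The ratio of LPS to US levels over the pooled reads was 0.0527 in Δ/+ (95% exact interval 0.0191 to 0.117) and 0.189 in Δ/DN (0.0995 to 0.334), intervals that cover counting error alone and may be too narrow if both mates of a pair were counted. Snord19, also in Gnl3, fell by 2.66 ± 0.47 and 2.01 ± 0.42.

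The gene 2410002F23Rik fell from 106 ± 28.7 CPM to 9.97 ± 1.02 CPM in Δ/+. It fell by 3.39 ± 0.27 there and by 2.48 ± 0.23 in Δ/DN. Its Snord88c had 32, 61, 60 and 93 reads in Δ/+ US and 6, 8 and 10 reads in Δ/+ LPS libraries, and fell by 2.65 ± 0.39 (adjusted p = 4.93e-05). Snord88a fell by 3.16 ± 0.55. Snord110, in the C/D core protein gene Nop56, fell by 2.08 ± 0.63 and 1.54 ± 0.53, and Snord82, in the nucleolin gene Ncl, fell by 1.68 ± 0.57 in Δ/+.

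U3 genes and most scaRNAs were not called. None of the 4 U3 genes was called with LPS in either genotype by edgeR or DESeq2, and none had an unadjusted p under 0.05. The sum of the U3 genes was 54.2, 44.5, 46.8 and 29.5 CPM in Δ/+ US and 54.8, 51.6 and 71.0 CPM in Δ/+ LPS libraries. In Δ/DN it was 53.8, 35.1 and 94.3 CPM in cultures 1 to 3 and lower than these in culture 4 without LPS, and 42.3, 41.0, 80.4 and 22.1 CPM in cultures 1 to 4 with LPS. Δ/DN culture 3 was the highest of its group both times and culture 4 the lowest. The 7SL genes, which encode the RNA of the signal recognition particle, followed the same order there, at 100270 CPM in culture 3 and 25920 CPM in culture 4 without LPS and at 51152 and 17107 CPM with LPS. In Δ/+ the 7SL sum ran from 41683 to 45988 CPM without and from 54875 to 64309 CPM with LPS. The part of such differences between libraries in the U3 and scaRNA values was not tested. With LPS the 4 U3 genes all lay above 0 in Δ/+ (median log2 difference 0.45) and below 0 in Δ/DN (-0.17). Of 6 scaRNAs 1 rose in Δ/+, where all 6 values lay above 0 (median 0.415). In Δ/DN 3 lay above 0 and 3 below, and none was called by either tool or had an unadjusted p under 0.05. The scaRNA sum was 49.6, 51.1, 48.3 and 44.2 CPM in Δ/+ US and 63.6, 67.3 and 69.6 CPM in Δ/+ LPS libraries, while in Δ/DN it ran from 39.5 to 76.2 CPM without and 30.6 to 64.2 CPM with LPS.

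Scarna2, a scaRNA transcribed from its own gene, lay at 11.5 ± 1.02 CPM (SD, n = 4), and at most at 12.7 CPM, in Δ/+ US and at 14.7, 17.3 and 16.7 CPM in Δ/+ LPS libraries. These ranges were apart, and it rose by 0.48 ± 0.14 (adjusted p = 0.0118). In Δ/DN it lay at 12.5 to 17.3 CPM without and 13.1 to 18.5 CPM with LPS, a difference of 0.23 ± 0.13 (adjusted p = 0.166). This became a call in library set 2 alone (0.44, adjusted p = 0.0251), without Δ/DN culture 3 (0.31, adjusted p = 0.0417), without Δ/DN LPS replicate 4 (0.34, adjusted p = 0.0356) and without Δ/DN US replicate 3 (0.37, adjusted p = 0.0159), and over the other alternatives its adjusted p reached 0.401. Scarna10, in Ncapd2, averaged 27.2 CPM over the 15 libraries. It ran from 23.6 to 25.9 CPM in Δ/+ US and from 34.2 to 35.3 CPM in Δ/+ LPS libraries, a difference of 0.46 ± 0.36 that passed no test (adjusted p = 0.322) but was called in library set 2 alone (0.47, adjusted p = 0.000361) and without Δ/DN culture 4 (0.55, adjusted p = 0.0167). Its host Ncapd2, a condensin subunit gene, fell by 1.63 ± 0.35. In Δ/DN Scarna10 ranged from 16.9 to 44.6 CPM without and 10.3 to 30.2 CPM with LPS, again highest in the US library of culture 3 and lowest in culture 4. The difference was -0.13 ± 0.33 (adjusted p = 0.777), but in library set 2 alone it turned to 0.41 and was called (adjusted p = 0.00443). The U8 gene Snord118, for which no host was found, differed by 0.01 ± 0.36 and -0.05 ± 0.33.

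**Figure D3:**
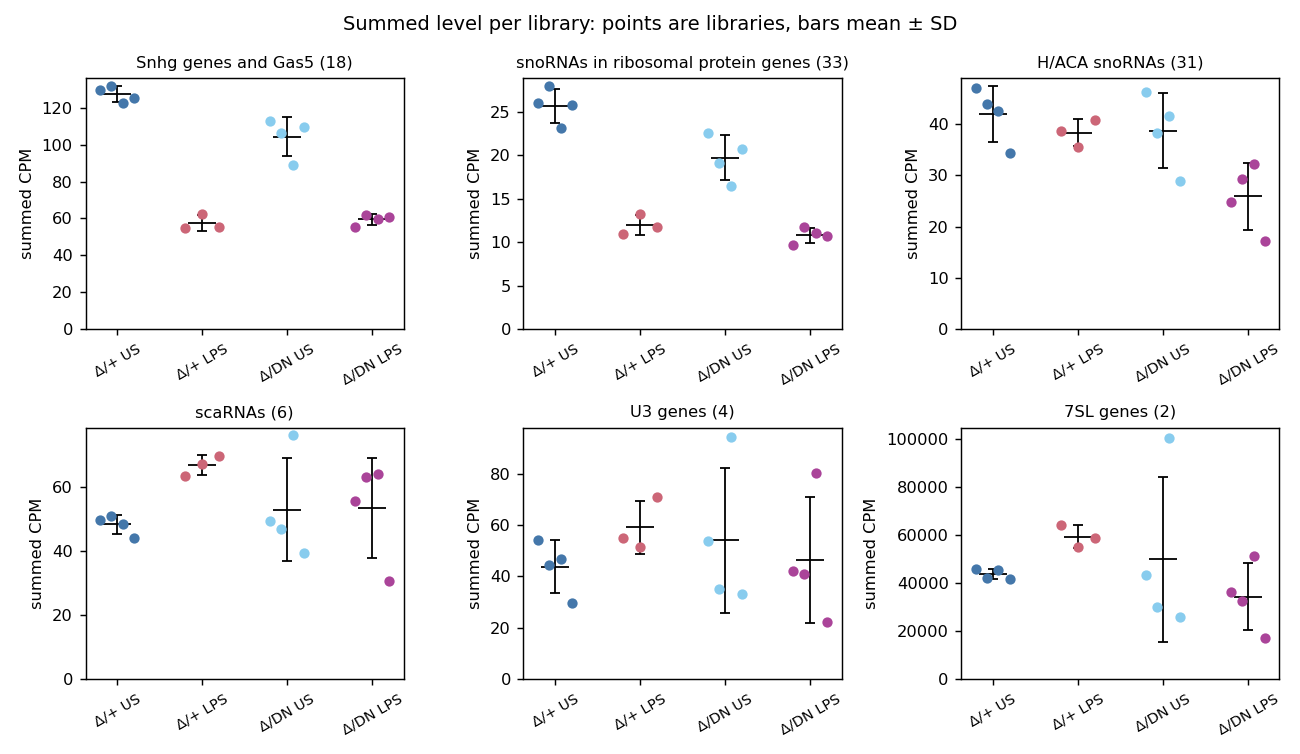
Summed CPM (vertical axes, from 0) of 5 groups of members and of the 2 7SL genes in each library, with mean and SD as bars. Host genes and snoRNAs of ribosomal protein genes separate US from LPS in both genotypes, while in Δ/DN the U3 and scaRNA sums spread with culture as the 7SL sums do, up to 94.3 CPM for U3 in culture 3 without LPS.

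Several protein partners of snoRNAs, from lists of known complex members, were lower with LPS as well. Of all genes, 25.3% fell and 22.4% rose in Δ/+, and 25.1% fell and 23.1% rose in Δ/DN. In the C/D complex 3 of 4 fell in each genotype. Nop58 fell by 1.45 ± 0.10 and 1.12 ± 0.09, Nop56 by 1.34 ± 0.09 and 1.29 ± 0.08, and the methyltransferase gene Fbl by 0.82 ± 0.09 and 0.58 ± 0.08. Snu13 differed by -0.05 ± 0.09 and 0.04 ± 0.08. In the H/ACA complex 3 of 4 fell in Δ/+ and 2 of 4 in Δ/DN. Dkc1, the pseudouridine synthase gene, went from 35.7 ± 6.04 CPM (SD, n = 4) to 4.13 ± 0.27 CPM (n = 3) in Δ/+, a fall of 3.08 ± 0.20 (adjusted p = 2.32e-08), and fell by 2.47 ± 0.17 in Δ/DN. Gar1 fell by 1.63 ± 0.17 and 1.31 ± 0.15. Of 18 assembly and trafficking genes, 9 fell in each genotype, and 3 rose in Δ/+ and 2 in Δ/DN. Among the fallen, Nolc1, which encodes a nucleolar chaperone of these complexes, fell by 1.64 ± 0.11 and 1.32 ± 0.10.

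The lists that process or degrade these RNAs did not move in one direction. The shares of all genes beside them are those just given. Of 8 genes of snoRNA and intron processing, 1 rose and none fell in Δ/+, and 2 rose and 2 fell in Δ/DN. The exonuclease gene Xrn2 rose by 1.03 ± 0.11 and 1.01 ± 0.11. Of 12 nonsense-mediated decay genes, 6 rose and 3 fell in each genotype. Among them Upf3b fell by 0.90 ± 0.16 and 0.91 ± 0.15. Of 15 translation genes with a 5′ terminal pyrimidine tract, a feature they share with Gas5 and several Snhg genes, 4 rose and 3 fell in Δ/+ and 5 rose and 1 fell in Δ/DN. Of 11 other small structural RNA genes, neither tool called any in Δ/+, where none had an unadjusted p under 0.05. All 11 values lay above 0 there, with a median log2 difference of 0.40, while in Δ/DN 4 lay above 0 and 7 below. In Δ/DN the spliceosomal RNA gene Rnu11 rose by 0.77 ± 0.30 (adjusted p = 0.0479), a call lost with culture as a block (adjusted p = 0.0534).

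Promoters are shown for 3 host genes that fell with LPS, the first and second in both genotypes and the third in Δ/+ alone. Sequences are RefSeq promoters of GRCm38.p6, from 250 bases before to 50 after the start. They are chr1:161034916-161035215 (+) for Gas5, chr19:8723237-8723536 (+) for Snhg1 and chr11:6528711-6529010 (-) for Snhg15. Capitals mark the letters TATAAA or CACGTG, read on either strand, and the Gas5 stretch holds neither.
Gas5: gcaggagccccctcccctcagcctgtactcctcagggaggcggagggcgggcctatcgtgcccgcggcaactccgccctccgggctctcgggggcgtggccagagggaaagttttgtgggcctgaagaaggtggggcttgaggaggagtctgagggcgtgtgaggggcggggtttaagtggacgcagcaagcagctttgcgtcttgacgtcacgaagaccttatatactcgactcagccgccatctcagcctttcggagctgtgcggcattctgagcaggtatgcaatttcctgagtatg
Snhg1: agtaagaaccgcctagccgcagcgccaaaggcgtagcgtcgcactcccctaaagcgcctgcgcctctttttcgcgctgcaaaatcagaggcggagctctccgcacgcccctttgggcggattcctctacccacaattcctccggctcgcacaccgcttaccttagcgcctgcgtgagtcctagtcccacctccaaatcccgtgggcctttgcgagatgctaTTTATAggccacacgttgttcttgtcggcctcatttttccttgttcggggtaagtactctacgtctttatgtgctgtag
Snhg15: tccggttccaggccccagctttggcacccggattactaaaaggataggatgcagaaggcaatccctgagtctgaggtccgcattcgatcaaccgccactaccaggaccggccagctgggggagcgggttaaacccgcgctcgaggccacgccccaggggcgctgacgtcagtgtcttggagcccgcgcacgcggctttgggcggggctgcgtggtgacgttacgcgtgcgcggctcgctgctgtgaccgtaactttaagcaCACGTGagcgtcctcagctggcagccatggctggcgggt
In Snhg1 the capitals are TATAAA read on the other strand, 29 bases before the start. The 16 host genes with an entry had 20 promoters, of which 6 held TATAAA, each of another gene, beside 13.6% of 32851 mouse promoters. At 23 to 30 bases before the start it was found in Snhg1, Snhg5, Snhg7 and Snhg8, of which Snhg8 passed no LPS test. CACGTG, the letters bound by MYC-type factors, was in 2 of 20, those of Snhg9 and Snhg15 (7.15% of all promoters), and CCGGAAG, letters of ETS-type factors, in 4 of 20 (8.86%). A palindromic CGCG element was in 0 of 20 (0.466%). Such matches describe these windows only.

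Between genotypes without LPS, a few host genes differed. Of 18 hosts, 4 fell and 1 rose in Δ/DN, where 10.5% of all genes were called, 5.45% as fallen and 5.01% as risen. Of 106 snoRNAs and scaRNAs, 2 fell and none rose. DESeq2 gave the same counts for hosts, and 8 falls and no rise for snoRNAs, and 15 snoRNAs had an unadjusted p under 0.05. The median log2 difference was -0.27 for hosts, -0.22 for C/D and -0.15 for H/ACA snoRNAs, beside 0.01 over all genes. None of the 8 neutrophil markers was called between genotypes by either tool, and 1 had an unadjusted p under 0.05, but their sum was highest in Δ/DN culture 4. All 6 mast cell and basophil markers were higher in Δ/DN, with a median log2 difference of 1.53 without and 1.75 with LPS. edgeR called none of them without LPS and Gata2 with LPS (2.81 ± 0.71), and DESeq2 called 1 in each. Their sum was 16.8 to 20.2 CPM in Δ/+ and 16.3 to 43.5 CPM in Δ/DN without LPS, and 17.1 to 19.9 and 22.9 to 54.7 CPM with LPS, again highest in Δ/DN culture 4. Of 10 macrophage markers, C1qa (0.94 ± 0.14), C1qb (0.60 ± 0.18) and C1qc (0.67 ± 0.17) rose and Cd68 fell (-0.37 ± 0.10) without LPS. With LPS C1qa rose and Cd68 fell. In each condition 6 of the 10 lay above 0 and 4 below. Apoe was not called, but its Δ/DN mean was the lower one, 39.7 against 108 CPM without LPS. With LPS the Apoe means were 48.1 against 170 CPM, and single libraries ran from 11.2 to 207 CPM. The macrophage markers summed to 1472 to 1913 CPM in Δ/+ and 1383 to 1917 CPM in Δ/DN without LPS. The part of these cell types in the genotype differences was not tested. With Δ/DN culture 4 left out, 3 hosts and 1 snoRNA fell and none rose. With Δ/DN culture 3 left out, 3 hosts and 2 snoRNAs fell and 1 host rose.

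Snhg17 ran from 11.7 to 14.1 CPM in Δ/+ US and stood at 7.72, 6.95, 7.05 and 9.62 CPM in Δ/DN US libraries, with no overlap. In this comparison the ranges of 12.5% of all genes were apart. The difference of Snhg17 was -0.80 ± 0.15 (adjusted p = 0.00971), and the call stood with each of the 15 libraries left out in turn. Snhg12 stood at 7.27, 7.05, 6.00 and 7.73 CPM in Δ/+ US and 5.21, 3.66, 3.06 and 4.16 CPM in Δ/DN US libraries. It differed by -0.81 ± 0.19 (adjusted p = 0.0172), a call lost without Δ/DN US replicate 2 (-0.78, adjusted p = 0.0689), Δ/+ US replicate 2 (-0.81, adjusted p = 0.0501) or Δ/+ US replicate 4 (-0.76, adjusted p = 0.0991). Snhg16 differed by -0.62 ± 0.18 (adjusted p = 0.0398) and Snhg1 by -0.46 ± 0.13 (adjusted p = 0.0401), and these calls stood in 5 and 4 of the 15 refits that leave out 1 library. The largest adjusted p, 0.195 for Snhg16 (-0.55) and 0.187 for Snhg1 (-0.42), came without Δ/+ US replicate 4, the sole Δ/+ library of set 3.

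Snhg7os was the host symbol that rose, by 2.15 ± 0.63 (adjusted p = 0.0419). It had 10, 13, 26 and 8 reads in Δ/+ US and 50, 135, 26 and 47 reads in Δ/DN US libraries, or 0.0931 to 0.241 and 0.338 to 1.52 CPM. The value rests in part on Δ/DN replicate 2, without which it was 1.53 (adjusted p = 0.218), and the call stood in 6 of 15 refits. Among snoRNAs, Snord100 averaged 1.07 ± 0.22 CPM (SD) over the 4 Δ/+ US libraries and stood at 0.534, 0.439, 0.520 and 0.730 CPM in Δ/DN US libraries, which all lay lower, a fall of 1.03 ± 0.26 (adjusted p = 0.0253). Its host Rps12 differed by -0.04 ± 0.07 (adjusted p = 0.804). The Snord100 call was lost without Δ/DN US replicate 2 (-0.96, adjusted p = 0.0942), Δ/+ US replicate 2 (-0.90, adjusted p = 0.0769) or Δ/+ US replicate 4 (-1.07, adjusted p = 0.107). Snord88c fell by 1.14 ± 0.31 (adjusted p = 0.0328), a call that stood in 9 of 15 refits and was farthest from the threshold without Δ/+ US replicate 4 (-0.92, adjusted p = 0.224). Gas5 differed by -0.18 ± 0.10 (adjusted p = 0.257).

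**Figure D4:**
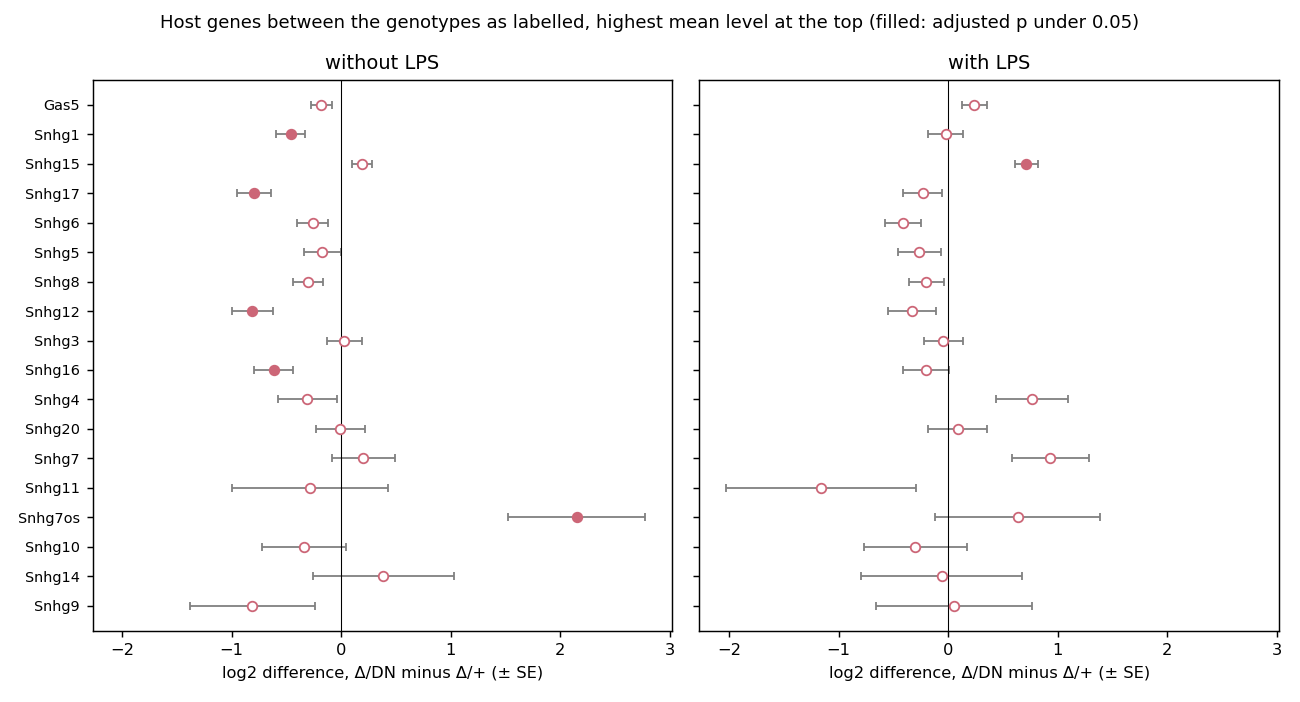
Log2 difference of Δ/DN from Δ/+ (horizontal axis, edgeR, bars ± SE) for the 18 host symbols, ordered by mean level, without and with LPS, filled where the adjusted p is under 0.05. Without LPS, Snhg1, Snhg12, Snhg16 and Snhg17 are filled to the left and Snhg7os to the right, and with LPS Snhg15 is filled at 0.72.

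Some genes of the protein partners differed too. Without LPS, 3 of 4 C/D core genes fell in Δ/DN, namely Nop58 by 0.68 ± 0.09 (adjusted p = 0.00247), Nop56 by 0.44 ± 0.08 and Snu13 by 0.35 ± 0.09. Of the H/ACA core genes 2 of 4 fell, Dkc1 by 0.77 ± 0.16 (adjusted p = 0.013) and Gar1 by 0.57 ± 0.15. Nolc1 fell by 0.78 ± 0.10 (adjusted p = 0.000915). Without Δ/+ US replicate 4 the calls of Nop56 (-0.46, adjusted p = 0.0522), Dkc1 (-0.66, adjusted p = 0.101), Gar1 (-0.53, adjusted p = 0.152) and Snu13 (-0.34, adjusted p = 0.122) were lost. The calls of Dkc1, Gar1 and Snu13 stood in 13, 11 and 10 of 15 refits that leave out 1 library. Of the other lists without LPS, 1 of 18 assembly genes (Nolc1), 1 of 8 processing genes and 2 of 12 nonsense-mediated decay genes (Upf1 and Gspt1) fell, and none rose. Of all genes 5.45% fell and 5.01% rose, so the 5.56% of assembly genes that fell was near the share of all genes.

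Genes that hold snoRNAs were also called. Without LPS, 13 of 35 hosts of other kinds fell in Δ/DN and 1 rose, and 4 of 25 ribosomal protein hosts fell. Of all genes, 5.45% fell and 5.01% rose there. Gnl3 averaged 55.4 ± 9.27 CPM over the 4 Δ/+ US and 33.2 ± 3.15 CPM (SD) over the 4 Δ/DN US libraries, a fall of 0.79 ± 0.09 (adjusted p = 0.000783). Ncl fell by 0.53 ± 0.09 (adjusted p = 0.00487). Ncapd2, the one that rose, did so by 1.22 ± 0.32 (adjusted p = 0.0314). With LPS, 6 of 25 ribosomal protein hosts fell, and of the 35 others 3 fell and 1 rose. The shares of all genes with LPS were 3.23% fallen and 5.37% risen. No test was made of the difference between hosts and snoRNAs.

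With LPS, edgeR called 1 host and no snoRNA between the genotypes, where 8.6% of all genes were called, 5.37% as risen and 3.23% as fallen. An unadjusted p under 0.05 was reached by 4 snoRNAs and 4 hosts, and DESeq2 also called 1 host and no snoRNA. With Δ/DN culture 3 left out, edgeR called 5 snoRNAs, among them Snora73a (-0.81) and Snord3a (-0.74), which fell, and Snora17 (1.41), which rose. Of the protein partners, Nop56 fell by 0.39 ± 0.10 (adjusted p = 0.0269) and Nolc1 by 0.47 ± 0.11 (adjusted p = 0.0231), calls that stood in 11 and 12 of 15 refits. The host was Snhg15, annotated as a snoRNA host but with no member inside it. The 3 Δ/+ LPS libraries lay between 4.74 and 5.01 CPM, and the Δ/DN LPS libraries at 7.97, 8.11, 6.91 and 7.61 CPM. These ranges did not meet, as for 24.6% of all genes in this comparison. The difference was 0.72 ± 0.11 (adjusted p = 0.00506), called in each of 15 refits that leave out 1 library. Without LPS, Snhg15 lay at 7.55, 7.28, 7.87 and 6.37 CPM in Δ/+ and 8.39, 8.29, 7.93 and 7.56 CPM in Δ/DN libraries, ranges that overlap, and passed no test (0.19 ± 0.10, adjusted p = 0.225). LPS lowered it by 0.60 ± 0.10 in Δ/+ (adjusted p = 0.000215), and its difference in Δ/DN was -0.07 ± 0.09 (adjusted p = 0.552).

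Whether the LPS response itself differed between genotypes was tested by the difference of the LPS effects. edgeR called no member, and 0.00479% of all genes, and 5 snoRNAs and 5 hosts had an unadjusted p under 0.05. For Snhg15 the difference was 0.53 ± 0.14 (adjusted p = 0.256). DESeq2 called it (0.53, adjusted p = 0.0159) and called no other member, where it called 106 of 35813 genes. It gave no adjusted p for 47 of the 124 members, 44 snoRNAs or scaRNAs and 3 hosts, which therefore could not be called. For Gas5 the difference was 0.42 ± 0.14 (adjusted p = 0.378) and for Snord100 1.16 ± 0.40 (adjusted p = 0.378). With the culture as a block edgeR called the U3 gene Snord3a (-0.90, adjusted p = 0.0398) and no other snoRNA. The single values of the U3 genes are uncertain, as said above, and the reason for this call was not tested. Calls in Δ/+ and not in Δ/DN, such as that of Snord47, are therefore not shown to differ between the genotypes.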

How the data were processed

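Total RNA depleted of ribosomal RNA was sequenced in 15 libraries. The deposited tables hold raw read counts per gene. Per the submitters' processing notes, the authors used FastQC, Trimmomatic 0.33, HISAT2 2.2.1 and featureCounts on mm39 (GRCm39). The order and roles of these tools, and whether counting used strand, are not given in the sources used here. Short RNAs may be recovered unevenly in such libraries.

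Counts were tested with edgeR 4.0.16 (R 4.3.3, limma 3.58.1), by TMM scaling, filterByExpr with a minimum count of 10, and a quasi-likelihood fit over the 4 groups with library set as a term. Adjusted p-values are Benjamini-Hochberg over all 20865 genes tested. All 124 members passed the filter. The fit was tested on simulated data. DESeq2 1.42.0, other scalings, no filter, no set term, set 2 alone, blocks and left-out libraries were alternatives, and leaving out Δ/DN culture 4 was added after the data were seen. Snord69 intervals are exact at 95% and cover counting error only. Members, gene lists and tests were chosen with earlier results of these data known. Genes named by rule were, in each comparison, the 5 snoRNAs or scaRNAs and the 5 hosts with the smallest p among those called (2 where none was), the 5 of each with the highest mean level, Gas5 with its snoRNA, and in each protein list the 4 called genes with the smallest p. The other snoRNAs and host genes named were chosen after their values were seen.

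Names pair the unstimulated with the stimulated library of each culture. Their deviations from the group means correlated at 0.144, 0.0643 and 0.221 in Δ/+ and at 0.184, 0.313, 0.308 and 0.428 in Δ/DN. Hosts of snoRNAs were taken from GENCODE M21 (GRCm38), where 115 members were found, and promoters from RefSeq (GRCm38.p6). No coordinates were converted between builds. Over all genes, a count of 2 was listed 25694 times, more often than 1 (23687) or 3 (9434), and the reason was not tested.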

Additional observations from a re-analysis of the deposited data

Results flagged for a closer look

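A single library stood far from the rest of its group, by Dixon's test at the 95% level, in 7 of 177 combinations of gene and group tested. Chance alone gives about 1 in 20. Among the members this was Scarna10, at 10.3 CPM in Δ/DN LPS culture 4 and 28.2 to 30.2 CPM in the other libraries of the group. Among the protein genes, Δ/+ US culture 4 was the highest of its group for Nop56 (81.3 CPM, others 69.9 to 71.7), Pabpc1 (1147 CPM, others 956 to 972) and Smg8 (35.2 CPM, others 30.5 to 30.9). Xrn2 was highest in Δ/DN US culture 3 at 134 CPM, with the others at 110 to 111. Dbr1 was highest in Δ/DN LPS culture 3 at 18.2 CPM, with the others at 14.8 to 15.3. Upf3a was lowest in Δ/DN LPS culture 1 at 13.8 CPM, with the others at 14.8 to 14.9.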

How the results depend on the processing

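With LPS, the counts of called snoRNAs and hosts stayed within 1.5 times under each alternative. Leaving out 1 library gave 30 to 43 called snoRNAs and 11 hosts in Δ/+, and 21 to 35 snoRNAs and 10 to 11 hosts in Δ/DN. Between genotypes the counts moved, and the cause was not tested. Without LPS, 2 snoRNAs were called, against 8 by DESeq2, 0 with no filter, 0 in library set 2 alone, 1 without Δ/DN culture 4 and 0 to 4 with 1 library left out. The 5 hosts called became 2 with no set term, 1 in set 2 alone, 3 without culture 4 and 1 to 5 with 1 library left out. With LPS, 0 snoRNAs became 5 in set 2 alone, 5 without culture 3, 1 without culture 4 and 0 to 1 with 1 library left out, and hosts were 1 to 2. For the difference of LPS effects, DESeq2 called 1 host, and leaving out 1 library gave 0 to 0 of each kind.

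With the culture as a replicate block, 1 snoRNA (Snord3a) was called for the difference of LPS effects, and 40 and 30 snoRNAs were called with LPS in Δ/+ and Δ/DN. Exosc3 in Δ/DN lost its call (-0.29, adjusted p = 0.0526). Replicate numbers do not pair the genotypes (correlations from -0.0885 to 0.146). A block on them gave 3 hosts without LPS and 2 snoRNAs with LPS, and values of -0.0016 for Scarna10 and -0.0948 for Snora73a without LPS.

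Directions that turned were of values that passed no test, except that Scarna10 with LPS in Δ/DN was called in set 2 alone. Between genotypes without LPS, set 2 alone gave -0.19 for Scarna10, -0.0395 for Snora73a, -0.22 for Snord3b4, -0.21 for Snord3b2 and 0.0244 for Snord47. Without culture 3 these were -0.26 for Scarna10, -0.16 for Snora73a, -0.0819 for Snord3b4 and -0.0374 for Snord3b2. With no set term Snora73a was at -0.0318. Leaving out 1 library gave ranges of -0.27 to 0.26 for Scarna10, -0.17 to 0.28 for Snora73a, -0.16 to 0.45 for Snord3b4, -0.11 to 0.51 for Snord3b2 and -0.42 to 0.13 for Snord47. With LPS, Scarna2 ranged from -0.0128 to 0.12 and Snhg1 from -0.17 to 0.16, and Snhg1 was at 0.0138 with no set term. For LPS in Δ/DN, Scarna10 was at 0.41 in set 2 alone (adjusted p = 0.00443), 0.0942 without culture 3 and 0.019 without culture 4, with a range of -0.30 to 0.31. Snord3b2 was at 0.0359 in set 2 alone, with a range of -0.69 to 0.31, and Snord3b4 ranged from -0.67 to 0.31. For LPS in Δ/+, Snhg6 was at 0.0001 under DESeq2-type scaling and ranged from -0.13 to 0.0291. Its difference of LPS effects was 0.0336 in set 2 alone. Low read numbers limit most snoRNAs.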
